A study of Sus scrofa with 13 samples.

Results

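The genes described here are the coagulation and fibrinolysis genes of the pig liver: the clotting factors made by hepatocytes, their inhibitors, the enzymes that dissolve a clot, and the vessel wall proteins that start or restrain clotting. They were selected by gene symbol. Of 35 genes named, 33 had a row in the table of 35670 rows, and all 33 were among the 16481 genes that were tested. FGA and PROZ were not analysed here. Grouped by where the protein is mainly made, 20 of the 33 encode plasma proteins of hepatocytes and 13 encode proteins of vessel wall, blood or other cells.

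Clotting begins when tissue factor on cells outside the vessel meets factor VII, and it is amplified when the contact system or thrombin activates factor XI. Factors IX and X, helped by the cofactors VIII and V, lead to thrombin, which cuts fibrinogen into fibrin that factor XIII then crosslinks. Antithrombin, protein C with protein S, and tissue factor pathway inhibitor limit the process, and plasmin, made from plasminogen, dissolves the fibrin. The liver makes most of these plasma proteins, and its endothelium, macrophages and stellate cells make several of the others.

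Each of the 13 libraries comes from the liver of a female Yorkshire pig. The 2 baseline libraries, 1a and 2, had no ischemia, no reperfusion and no infusion. The other 11 livers were cut off from blood for 45 min by clamps on the hepatic artery, the portal vein and the hepatic veins, and were sampled after 6 h of reperfusion. The 3 ischemic controls received no cells. The 4 arterial and 4 portal livers received 3 M (M for mega) human bone marrow-derived mesenchymal stromal cells (BM-MSCs, a connective tissue cell grown in culture) for each kg of body weight, by the hepatic artery in the arterial and by the portal vein in the portal group. The cells were of another species than the host, and whether reads of human cells were counted on pig genes was not tested. In the study biopsies were taken before clamping and again at 6 h, in pigs that were all clamped, so a baseline library may come from the same animal as a later one. The labels do not say which, and the tests treat the 13 libraries as independent. Biopsies came from several lobe positions that the labels do not give.

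Messenger RNA was counted as reads per gene, between 18975413 and 35949178 reads a library. All 12 hepatocyte markers examined were above 0 in every library. On a principal component drawn from the 500 most variable genes outside the 33, which held 61.4% of their variance, control 2, arterial 1, portal 1 and portal 4 scored 25.4, 60.8, 104.8 and 52.7, and the other 9 libraries scored between -40.4 and -13.5. These 4 libraries had reads on 13581 to 16993 genes and the other 9 on 15831 to 20282. They belong to 3 groups, so values are given below with and without them. Tests used edgeR's quasi-likelihood method with Benjamini-Hochberg adjustment over the 16481 genes. Log2 differences are given ± SE, and normalized counts are reads divided by DESeq2's size factor of the library. No transcript lengths were used, so levels are not compared between genes.

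Livers of the same group differed widely, in these genes about as much as in all genes tested. None of the 33 passed an adjusted p of 0.05 in any comparison, and neither did any of the 16481 genes. The standard deviation within groups, on the scale of log2(normalized count + 1), had a median of 0.91 over the 33 genes, 0.91 over all genes tested, 0.80 over the 20 plasma genes and 1.02 over the 13 others. It was smallest for PROC (0.38), F2 (0.43) and F9 (0.45), which encode protein C, prothrombin and factor IX. The largest values were those of F2R (2.89), TFPI (1.96), F3 (1.74), PLAT (1.56) and FGG (1.49). F2R and TFPI had 0 reads in some libraries, which widens their spread on this scale. The RNA is that of whole tissue, so fewer cells of a type and less RNA per cell cannot be told apart.

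**Figure D1:**
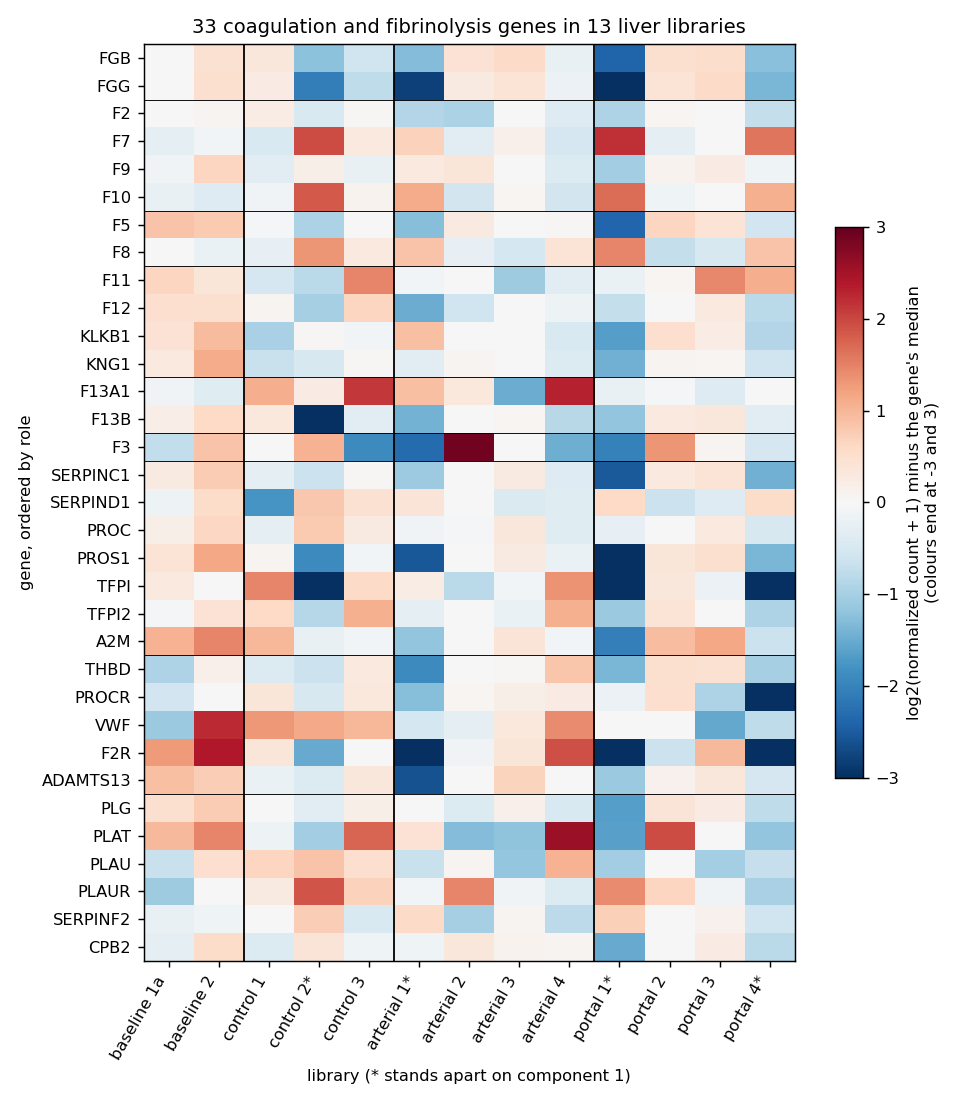
Each row is 1 of the 33 genes, ordered by role, and each column is 1 of the 13 libraries. Colour gives log2(normalized count + 1) minus the gene's median over the libraries, ending at -3 and 3, and vertical lines part the 4 groups. In the columns marked with an asterisk (control 2, arterial 1, portal 1 and portal 4) FGB, FGG, F5 and PROS1 are blue and F7, F10 and F8 are red.

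In the 4 libraries that stood apart, 10 of the 33 genes (30.3%) had their 4 lowest values of the 13, a position that 10.1% of all genes tested shared. These 10 were FGB, FGG, F5, F12, SERPINC1, PROS1, A2M, TFPI2, F2R and ADAMTS13. F7, F10 and F8 had their 4 highest values there, 3 of 33 genes (9.09%) against 8.86% of all genes tested. The other 20 genes had no such order. No summed list of cell type markers (hepatocyte, sinusoidal endothelium, endothelium, macrophage, neutrophil, platelet, stellate cell, cholangiocyte) had its 4 lowest or 4 highest sums in these libraries. Single markers did, and in both directions. Of the hepatocyte list, TF and AHSG had their 4 lowest values there, and APOA1 and APOC3 their 4 highest. TF was at 22259 to 68911 there and at 118873 or more in the others. APOC3 was at 634030 to 964264 there and at 177197 or less in the others. The part of RNA quality in the position of these libraries was not tested.

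FGB and FGG encode the beta and gamma chains of fibrinogen, the protein that forms the clot. Both lie on chromosome 8 (RefSeq annotation of Sscrofa11.1), FGG from 74553040 to 74562151 and FGB from 74598170 to 74607409, with 36018 bases between them. Normalized counts of FGB were 814218 and 1114205 at baseline, 1026163, 345000 and 536259 in ischemic controls, 330795, 1106958, 1205811 and 702733 after arterial infusion, and 153404, 1136810, 1178684 and 339162 after portal infusion. Normalized counts of FGG were 631775 and 884543 at baseline, 753357, 149498 and 369934 in controls, 89956, 758941, 836933 and 556006 after arterial infusion, and 60623, 839988, 942402 and 246110 after portal infusion. For both chains the lowest value of every group at 6 h was that of a library that stood apart, and the groups overlapped. The pair took between 0.827% (portal 1) and 7.19% (portal 3) of all counted reads of a library. Reads on FGB were 1.25 to 3.68 times those on FGG, the highest ratio being in arterial 1.

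**Figure D2:**
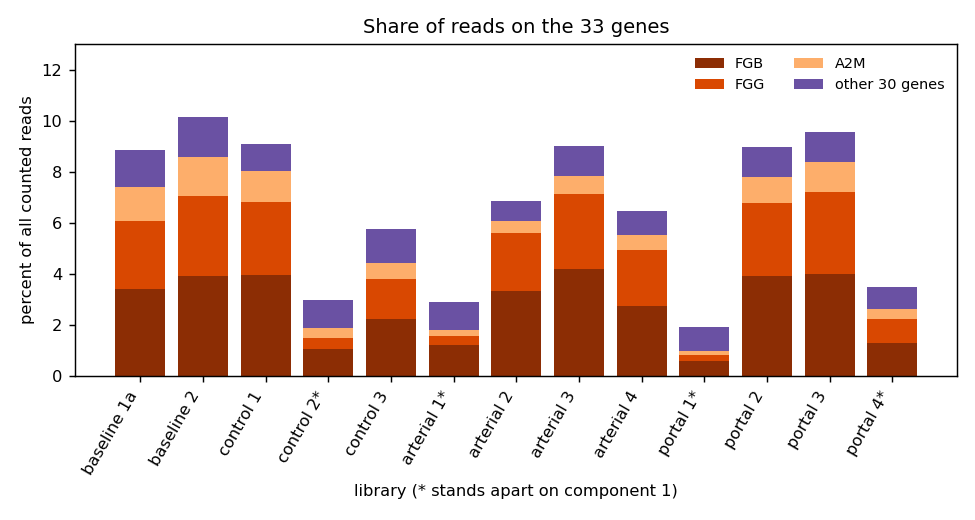
Bars give the percent of all counted reads of each library that fell on FGB, FGG, A2M and the other 30 genes. The 33 genes together took 1.91% to 10.1% of the reads, and the 30 without FGB, FGG and A2M between 0.772% and 1.56%.

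The vitamin K-dependent procoagulants F2, F7, F9 and F10 did not move together. F7, the factor that tissue factor binds, and F10, the factor whose active form makes thrombin, lie next to each other on chromosome 11, from 78512389 to 78518668 and from 78521760 to 78538256, with 3091 bases between them. Normalized counts of F10 were 16474 and 14750 at baseline, 17819, 68501 and 20499 in controls, 41303, 13131, 19868 and 13150 after arterial infusion, and 61259, 17411, 19148 and 40036 after portal infusion. The 4 highest values were those of the libraries that stood apart, and the other 9 lay between 13131 and 20499. Normalized counts of F7 were 2213 and 2572 at baseline, 1986, 10500 and 3335 in controls, 4419, 2199, 3029 and 1931 after arterial infusion, and 12431, 2259, 2719 and 8310 after portal infusion. F7 was thus high in the same 4 libraries, and reads on F10 were 4.82 to 9.35 times those on F7 throughout.

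F2, which encodes prothrombin, had normalized counts of 46944 and 49300 at baseline, 54744, 34211 and 47999 in controls, 25513, 24162, 47417 and 36097 after arterial infusion, and 24580, 48856, 47669 and 28506 after portal infusion. The values of all 4 groups overlapped. F9 ranged from 6951 in portal 1 to 22455 in baseline 2. The ratio of reads on F10 to reads on F9 ran from 0.657 in baseline 2 to 8.81 in portal 1, and this ratio within a library does not depend on the size factor.

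**Figure D3:**
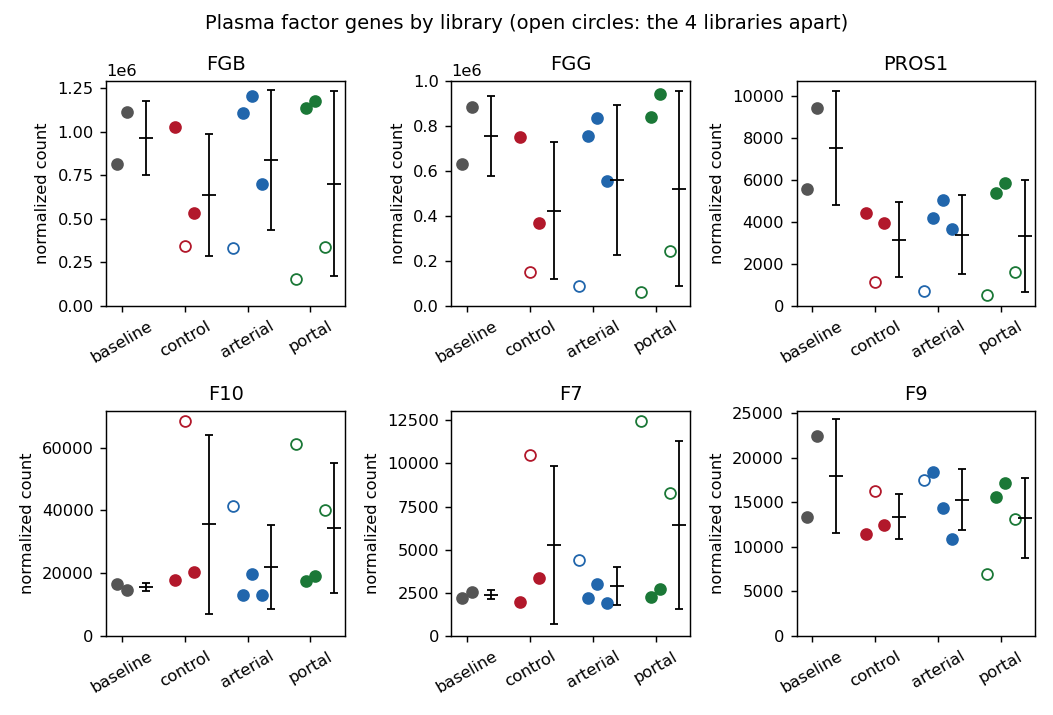
Normalized counts of 6 plasma factor genes in every library, by group. Open circles are control 2, arterial 1, portal 1 and portal 4, and the bars beside each group are mean ± SD (n = 2 at baseline, 3 controls, 4 arterial, 4 portal). Open circles lie at the bottom for FGB, FGG and PROS1, at the top for F10 and F7, and on no one side for F9.

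Of the cofactors, F5 is a plasma protein that speeds the making of thrombin and F8, made largely by endothelium, helps factor IX. Normalized counts of F5 were 5287 and 5079 at baseline, 2845, 1523 and 2937 in controls, 1211, 3563, 2898 and 3033 after arterial infusion, and 565, 4600, 3918 and 1985 after portal infusion. Both baseline values lay above all 11 later ones, the nearest being portal 2. F8 ranged from 722 in portal 2 to 3261 in portal 1, and its values in the libraries that stood apart (2993, 2153, 3261 and 2144) were above all others.

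The contact system holds F12, its starting enzyme, KLKB1 (prekallikrein), F11 and KNG1, the kininogen that carries prekallikrein and factor XI and releases bradykinin. Normalized counts of KNG1 were 18244 and 32297 at baseline, 9400, 10636 and 15254 in controls, 11797, 15764, 14956 and 11286 after arterial infusion, and 5497, 15760, 15513 and 9861 after portal infusion. Every liver at 6 h was below both baseline livers, and baseline 1a lay close to the highest of them. Normalized counts of F11 were 509 and 424 at baseline, 233, 187 and 909 in controls, 309, 328, 157 and 264 after arterial infusion, and 287, 344, 890 and 704 after portal infusion. Control 3, portal 3 and portal 4 had the 3 highest values, so the groups overlapped. KLKB1 ranged from 1030 to 6261 and F12 from 2795 to 12419.

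Factor XIII crosslinks fibrin. Its active subunit F13A1 comes mainly from macrophages and platelet precursors, and its carrier subunit F13B from hepatocytes. Normalized counts of F13A1 were 444 and 369 at baseline, 1004, 560 and 2057 in controls, 892, 594, 168 and 2348 after arterial infusion, and 408, 459, 364 and 475 after portal infusion. Control 3 and arterial 4 were highest, and the 4 portal values all lay below the 3 control values. Normalized counts of F13B were 3404 and 4469 at baseline, 3688, 315 and 2370 in controls, 1093, 2941, 3069 and 1641 after arterial infusion, and 1304, 3595, 3729 and 2364 after portal infusion, with the lowest value in control 2.

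F3, tissue factor, is the cell surface protein that starts clotting. Its normalized counts were 183 and 548 at baseline, 304, 630 and 79.5 in controls, 60.7, 2275, 304 and 109 after arterial infusion, and 74.3, 760, 323 and 212 after portal infusion. Arterial 2 lay far above the others, and this library also had the highest share of reads on mitochondrial protein genes, 22.0% against 4.51% to 16.0% in the others. The part of this in the F3 value was not tested.

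Among the inhibitors, A2M encodes a broad protease trap of plasma, SERPINC1 antithrombin, SERPIND1 heparin cofactor II, PROC and PROS1 protein C and its cofactor protein S, and TFPI and TFPI2 inhibitors that act on the tissue factor pathway and on related proteases. Normalized counts of A2M were 324722 and 431174 at baseline, 310873, 133574 and 148778 in controls, 69476, 156615, 205770 and 147589 after arterial infusion, and 38100, 297403, 347453 and 99781 after portal infusion. Baseline was above all controls and all arterial livers, while portal 3 lay between the baseline values. Normalized counts of PROS1 were 5579 and 9425 at baseline, 4425, 1119 and 3928 in controls, 719, 4183, 5018 and 3639 after arterial infusion, and 526, 5390, 5830 and 1611 after portal infusion. The 4 libraries that stood apart held the 4 lowest. PROC, whose standard deviation within groups was the smallest of the 33, stayed between 12623 and 30783. Reads on PROC were 2.89 to 28.2 times those on PROS1. SERPINC1 ranged from 7027 to 68570 and SERPIND1 from 2770 to 16481. TFPI2 ranged from 300 to 1371, and TFPI was counted at 0 to 50 reads, with 0 in control 2, portal 1 and portal 4, which allows up to 3 reads in each.

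On the vessel wall, THBD (thrombomodulin) and PROCR help activate protein C, VWF tethers platelets and carries factor VIII, ADAMTS13 cuts VWF, and F2R is a thrombin receptor. Normalized counts of VWF were 99.5 and 1019 at baseline, 539, 478 and 429 in controls, 150, 177, 269 and 577 after arterial infusion, and 216, 216, 74.2 and 128 after portal infusion. The baseline values lay far apart, the controls were close together, and the 4 portal values lay below all 3 controls. Normalized counts of ADAMTS13 were 848 and 748 at baseline, 391, 336 and 568 in controls, 73.2, 450, 713 and 445 after arterial infusion, and 208, 496, 566 and 318 after portal infusion. Both baseline values were above all 11 others, the nearest being arterial 3. THBD ranged from 120 to 815 and PROCR from 13.5 to 271. F2R had 0 to 289 reads, with 0 in arterial 1, portal 1 and portal 4.

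Fibrinolysis rests on PLG (plasminogen), its activators PLAT and PLAU, the PLAU receptor PLAUR, the plasmin inhibitor SERPINF2, and CPB2, a carboxypeptidase that protects fibrin. Normalized counts of PLG were 86205 and 105912 at baseline, 62193, 49631 and 70704 in controls, 62058, 46812, 68727 and 45008 after arterial infusion, and 19659, 81192, 74043 and 36877 after portal infusion. All 11 livers at 6 h were below both baseline livers, the nearest being portal 2. Normalized counts of PLAU were 130 and 293 at baseline, 323, 373 and 296 in controls, 130, 221, 92.5 and 425 after arterial infusion, and 101, 207, 102 and 129 after portal infusion. Controls lay above all portal livers and above both baseline livers, with control 3 close to baseline 2. Normalized counts of PLAUR were 367 and 768 at baseline, 921, 2837 and 1249 in controls, 730, 2124, 717 and 573 after arterial infusion, and 2063, 1204, 711 and 393 after portal infusion. Control 2, arterial 2 and portal 1 were highest. PLAT ranged from 127 to 2386, SERPINF2 from 15611 to 52696 and CPB2 from 7510 to 31481.

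**Figure D4:**
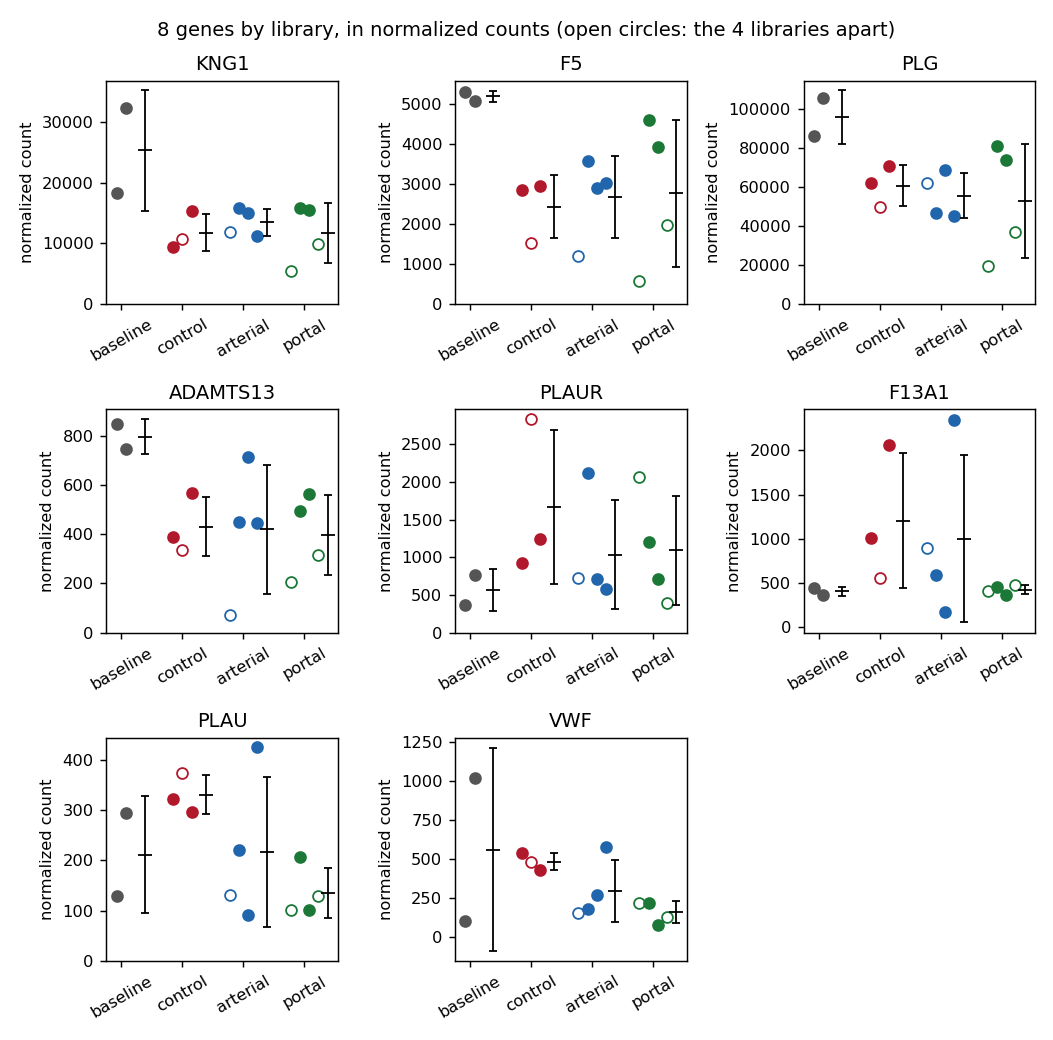
Normalized counts in every library for 8 of the 33 genes, by group. Open circles are control 2, arterial 1, portal 1 and portal 4, and the bars beside each group are mean ± SD (n = 2, 3, 4 and 4). All livers at 6 h lie below both baseline livers for KNG1, F5, PLG and ADAMTS13, and all portal livers lie below all controls for F13A1, PLAU and VWF.

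Ischemic controls against baseline compare livers without cells after ischemia and 6 h of reperfusion with livers before clamping. No group was sampled at 6 h without clamping. The hours under anesthesia and surgery therefore cannot be told apart from ischemia and reperfusion. None of the 33 genes passed the test, as was true of 0% of all genes tested, with a smallest adjusted p of 0.978. At an unadjusted p under 0.05 stood 1 of the 33 genes (KNG1), beside 4.37% of all genes. KNG1 was lower in controls, with a log2 difference of -1.10 ± 0.51 (0.466 of baseline, unadjusted p = 0.0482, adjusted p = 0.978). DESeq2 over all libraries also called 0 of the 33, with 2 at an unadjusted p under 0.05. Fitted to only these 5 libraries, DESeq2 called 0 of the 33 and had 5 at an unadjusted p under 0.05, among 166 genes called.

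Most plasma protein genes had fitted values below baseline in controls and the 13 other genes were divided, counts that were not tested. Of the 20 plasma genes, 3 had a value above and 17 a value below baseline, with a median log2 difference of -0.50. Of the 13 others, 8 were above and 5 below, with a median of 0.29. The median was -0.20 over the 33 and 0.0048 over all genes tested. These counts depended on the baseline liver. Without baseline 2, 16 of the 33 were above and 17 below, with a median of -0.057. Without baseline 1a, 11 were above and 22 below, with a median of -0.57. The fibrinogen genes and the 4 contact genes were all below baseline, with medians of -0.69 and -0.71, and 5 of the 7 inhibitors were below. Without the 4 libraries that stood apart, the medians were -0.34 and -0.55. F11 was then above baseline at 0.30, and again 5 of the 7 inhibitors were below.

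Ranges did not overlap for 13 of the 33 genes. In controls 9 of 33 (27.3%) lay below both baseline values, against 16.3% of all genes: F5, KLKB1, KNG1, PLG, SERPINC1, PROS1, A2M, F2R and ADAMTS13. Another 4 of 33 (12.1%) lay above, against 14.8% of all genes: F10, F13A1, PLAU and PLAUR. F13A1 was higher by 1.58 ± 0.81 (unadjusted p = 0.0696) and PLAUR by 1.53 ± 0.74 (unadjusted p = 0.0569), both with an adjusted p of 0.978. The sum of the 5 neutrophil markers with a row (of 8 listed, none at 0) was 855 and 898 at baseline and 1268, 12219 and 3995 in controls, and the highest of these was in control 2, as for PLAUR. Summed stellate cell markers were 25038, 7810 and 34122 in controls and 11522 and 19588 at baseline, with 8 of 8 having a row and RGS5 and LUM at 0 in some libraries. Among controls this sum was highest in control 3, as for F13A1. The macrophage, platelet and cholangiocyte sums were also highest there among controls. By normalized count, only COL1A1 and LRAT of the stellate list were higher in control 3 than in control 1. Reads on COL1A1 before scaling were 12779, 1553 and 28511 in controls. Summed macrophage markers were 15874 and 9468 at baseline and 13908, 13487 and 14602 in controls and overlapped, as did the 7 platelet markers with a row (413 and 730 at baseline, 545, 841 and 1241 in controls). Their part in these values was not tested. An exact permutation test of 3 against 2 livers cannot give a p under 0.1, and it gave that for 5 of the 9 lower genes (F5, KLKB1, KNG1, PLG and F2R).

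Without the 4 libraries that stood apart, 10 genes lay below and 7 above baseline, against 22.2% and 20.7% of all genes. Without baseline 1a, 15 lay below, against 28.6% of all genes, and without baseline 2, 7 lay above, against 20.9%. The KNG1 difference was -0.68 without baseline 2 and -1.45 without baseline 1a. PLAUR stood at 0.97 without control 2 (unadjusted p = 0.215) and F13A1 at 0.97 without control 3 (unadjusted p = 0.254).

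Taking all 11 livers at 6 h against baseline used every later liver, but shares the baseline and control libraries with the comparison above. Of the 33 genes, 10 were above and 23 below, with a median log2 difference of -0.36 against -0.013 over all genes. This median was -0.61 without baseline 1a and -0.21 without baseline 2. None passed the test, as with 0% of all genes, the smallest adjusted p among the 33 being 0.860, and 1 of 33 had an unadjusted p under 0.05 beside 4.78% of all genes. DESeq2 over all libraries gave the same 2 counts. The count at an unadjusted p under 0.05 moved with the setting, to 7 without the 4 libraries, 9 in voom with sample weights (where 111 of all genes were called), 6 with no filter on low counts, 4 with the replicate number as a block, 2 without baseline 1a and 0 without baseline 2. The gene of the edgeR fit was again KNG1, at -1.05 ± 0.40 (0.484 of baseline, unadjusted p = 0.0206, adjusted p = 0.860), lower in 11 of 11 livers, with an exact permutation p of 0.0256, the smallest that 11 against 2 livers gave for any of the 33. Over the alternatives tried its adjusted p was lowest at 0.112, in limma's voom with sample weights.

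In 4 of the 33 genes (12.1%) all 11 livers lay below both baseline livers, against 3.97% of all genes, and in 0 they lay above, against 3.3%. The 4 genes were KNG1, F5, PLG and ADAMTS13, the same 4 without the libraries that stood apart, where 5.90% of all genes did so. Without baseline 1a the count was 13, against 12.8% of all genes. The fitted log2 difference was -0.98 ± 0.55 for F5, -0.77 ± 0.47 for PLG and -0.94 ± 0.55 for ADAMTS13, with unadjusted p of 0.0957, 0.122 and 0.107. Without the 4 libraries F5 stood at -0.60 with a smaller unadjusted p of 0.0202. Of the 7 inhibitors all 7 were below baseline, from -1.17 for PROS1 to -0.050 for TFPI2, each with an adjusted p of 0.860 or more. Without the 4 libraries 5 were below and 2 above, TFPI (0.42) and TFPI2.

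**Figure D5:**
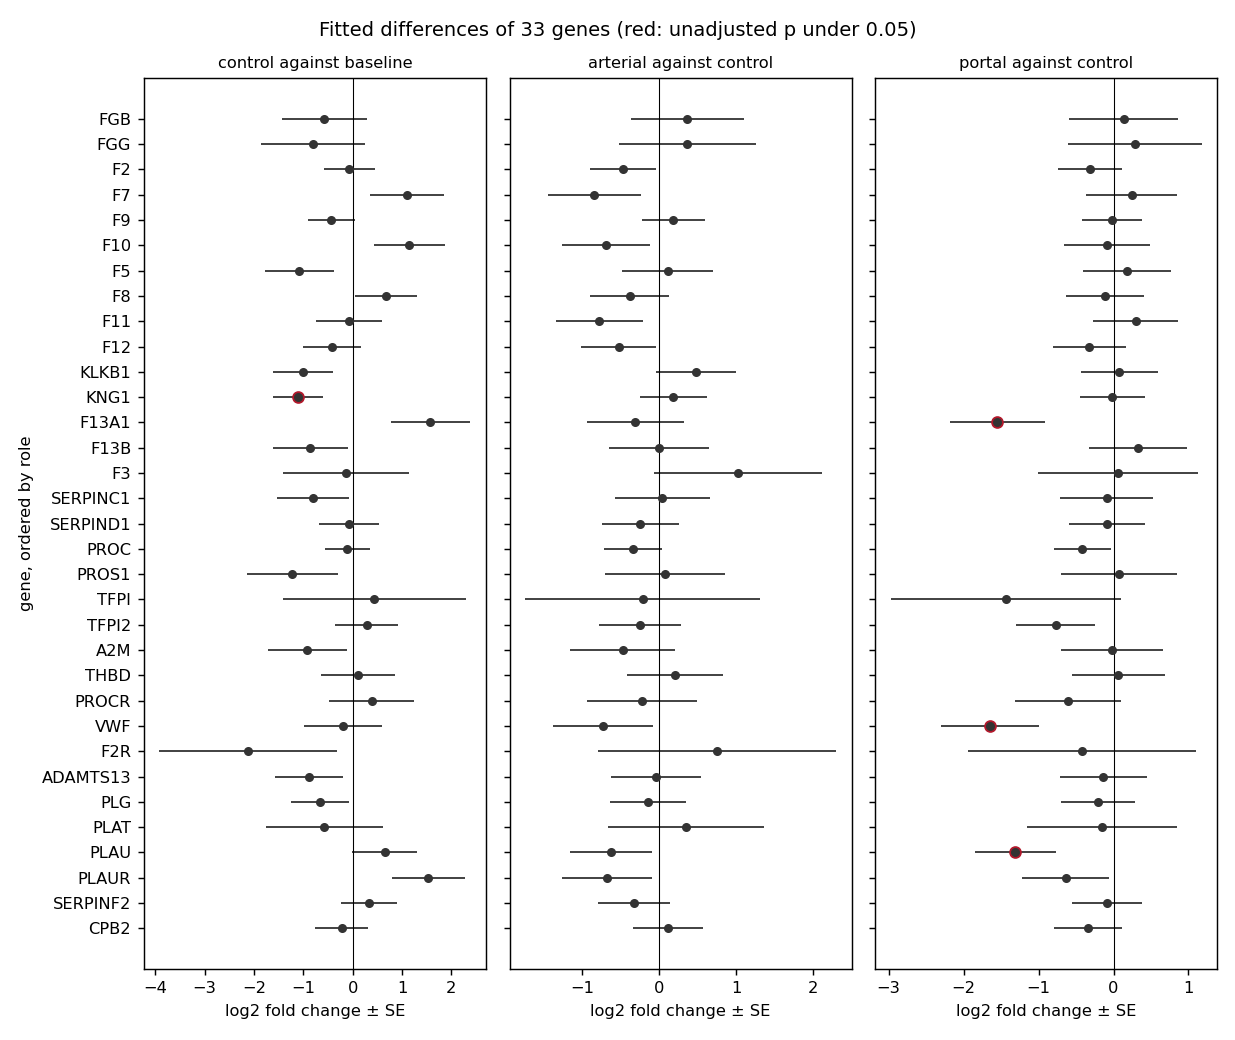
Fitted log2 fold changes ± SE of the 33 genes in 3 comparisons, with 0 as a vertical line. Genes with an unadjusted p under 0.05 are ringed in red. These are KNG1 for controls against baseline, none for arterial infusion against controls, and F13A1, VWF and PLAU for portal infusion against controls, and none has an adjusted p under 0.05.

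Infused livers against controls compare livers given BM-MSCs with livers given none, at 6 h. The paper describes no infusion of fluid without cells in controls. The cells therefore cannot be told apart from the catheter or needle and the fluid they came in. The paper's own comparison with controls took samples positive for human B2M, its marker of the cells. The sample titles do not mark those samples. Over all 8 infused livers 0 of the 33 genes passed the test (0% of all genes, adjusted p of 1.00 for each of the 33) and 1 had an unadjusted p under 0.05, beside 2.14% of all genes. This was VWF, lower in infused livers with a log2 difference of -1.19 ± 0.55 (0.438 of controls, unadjusted p = 0.0487, exact permutation p = 0.0424). Arterial 4 lay above all controls, so the groups overlapped, as they did for all 33 genes, while 0.225% of all genes lay apart and higher and 0.34% apart and lower. The median of the 33 was -0.17, against -0.023 over all genes, and without the 4 libraries it was 0.013, with CPB2 apart and higher (5.73% of all genes) and no gene of the 33 apart and lower (6.31%). DESeq2 over all libraries called 0 of the 33 and had 0 at an unadjusted p under 0.05.

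Portal infusion against controls gave 3 of the 33 genes with an unadjusted p under 0.05 (2.79% of all genes): VWF, PLAU and F13A1. They were also the 3 genes (9.09%) in which all 4 portal livers lay below all 3 controls, against 2.33% of all genes, and none lay above, against 1.39%. The log2 difference of VWF was -1.65 ± 0.66 (0.318 of controls, unadjusted p = 0.0242, exact permutation p = 0.0286, the smallest that 4 against 3 can give). That of F13A1 was -1.55 ± 0.64 (0.342 of controls, unadjusted p = 0.0282, exact permutation p = 0.0286). That of PLAU was -1.31 ± 0.54 (0.403 of controls, unadjusted p = 0.0279, exact permutation p = 0.0571). Each had an adjusted p of 1.00, and DESeq2 over all libraries called 0 of the 33 with 3 at an unadjusted p under 0.05.

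As means ± SD, VWF was at 482 ± 54.8 in controls (n = 3) and 159 ± 70.0 after portal infusion (n = 4). F13A1 was at 1207 ± 769 and 426 ± 50.3, and PLAU at 331 ± 39.0 and 135 ± 50.1. Summed markers of macrophages, a main source of F13A1, were 13908, 13487 and 14602 in controls and 4832, 8620, 12382 and 7942 after portal infusion, so this sum did not overlap either. In that list 7 of 8 had a row, and TIMD4 and MSR1 were at 0 in portal 1. Its markers did not move as one. Before scaling, reads on CD163 were 11759, 2589 and 9548 in controls and 726, 5218, 7238 and 2811 after portal infusion. Those on MARCO were 253, 258 and 298 in controls and 866, 337, 242 and 639 after portal infusion. Taken singly, both markers overlapped between the groups. Summed endothelial markers, 8 of 8 with ERG at 0 in portal 1 and portal 4, were 5099 to 11925 in controls and 4780 to 11585 after portal infusion and overlapped. EGFL7 weighed most in control 2 and portal 1, with 4207 and 7034 reads before scaling. PECAM1, of the same list, had normalized counts in all 4 portal livers below all 3 controls, while the other markers of the list overlapped singly. The part of cell content in these differences was not tested. Without the 4 libraries the log2 differences were -1.73 for VWF, -1.88 for F13A1 and -0.99 for PLAU, with unadjusted p of 0.0770, 0.0516 and 0.148. The F13A1 difference was -0.95 without control 3 (unadjusted p = 0.183), the liver with the highest control value.

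The direction of the lists after portal infusion depended on the 4 libraries. Of the 13 genes of vessel wall, blood and other cells, which include VWF, PLAU and F13A1, 2 were above and 11 below controls with a median of -0.61, and of the 20 plasma genes 8 were above and 12 below with a median of -0.022. All 6 fibrinolysis genes were below, from -1.31 for PLAU to -0.081 for SERPINF2. Without the 4 libraries 4 of these 6 (PLG, PLAT, SERPINF2 and CPB2) were above controls, 15 of the 20 plasma genes were above with a median of 0.32, and 5 of the 13 others were above with a median of -0.37. The median of the 33 was -0.093, with 10 above and 23 below. It turned to 0.19, with 20 above and 13 below, without the 4 libraries, and to 0.10 in voom with sample weights. Without those libraries only portal 2 and portal 3 remain against control 1 and control 3, and 12 genes lay above and 6 below, against 21.3% and 22.8% of all genes.

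Arterial infusion against controls gave 0 of the 33 genes at either threshold (0% of all genes called, 1.57% with an unadjusted p under 0.05), and all 33 overlapped, while 1.61% of all genes lay apart and higher and 1.57% apart and lower. DESeq2 over all libraries also had 0 of the 33 at either threshold. Without the 4 libraries CPB2 lay apart and higher (8.85% of all genes) and F2, F12 and PROCR apart and lower (8.97%). The genes with the smallest unadjusted p values in edgeR were F7 (-0.84 ± 0.60), F11 (-0.77 ± 0.56) and F10 (-0.69 ± 0.57), at 0.183, 0.189 and 0.251. Each turned with 1 control left out: F7 to 0.089 and F10 to 0.16 without control 2, and F11 to 0.30 without control 3. The largest positive value was that of F3 (1.03 ± 1.09, unadjusted p = 0.363), with arterial 2 as the high library.

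The route of infusion was compared directly as arterial against portal livers. No gene of the 33 passed the test (0% of all genes called) and 0 had an unadjusted p under 0.05, beside 2.4% of all genes, while the ranges of all 33 overlapped (0.91% of all genes lay apart and higher, 0.498% apart and lower). DESeq2 over all libraries gave 0 of the 33 at both thresholds. Of the 33 genes 21 were higher and 12 lower after arterial infusion, with a median log2 difference of 0.094, against 0.036 over all genes. Without the 4 libraries this turned to 13 higher and 20 lower with a median of -0.16, against 0.038 over all genes, and in voom with sample weights to 10 and 23 with a median of -0.16. With those libraries left out of edgeR, 18 of the 20 plasma genes were lower and 11 of the 13 others higher, and 10 of the 33 (F2, F5, F11, F13B, FGG, KLKB1, PLG, SERPINC1, PROS1 and A2M) lay apart and lower after arterial infusion, against 10% of all genes, and 0 apart and higher, against 10.4%, with 3 arterial and 2 portal livers left. F13A1 came closest, higher after arterial infusion by 1.24 ± 0.60 (unadjusted p = 0.0561), and it stood at 0.38 without arterial 4. F11 and F7 were lower after arterial infusion, with log2 differences of -1.07 ± 0.53 (unadjusted p = 0.0613) and -1.08 ± 0.57 (unadjusted p = 0.0764). F7 was at -0.070 without the 4 libraries, and F11 at -1.32 with an unadjusted p of 0.0348. VWF differed by 0.92 ± 0.62 (unadjusted p = 0.155) and PLAU by 0.69 ± 0.50 (unadjusted p = 0.191), so the portal values of these genes were not shown to differ from the arterial ones. A test of any difference among the 4 groups called 0 of the 33 (0% of all genes) and had 0 at an unadjusted p under 0.05, beside 2.39% of all genes.

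Other genes of the pathway, 24 tested, cover vitamin K recycling and secretion of the factors, further inhibitors, and receptors that gather plasmin on cells. None of the 24 passed the test in any comparison. ANXA5, a protein that covers exposed phospholipid, had normalized counts of 1355 and 1199 at baseline and 4612, 1317 and 6904 in controls, so control 2 overlapped baseline. Its log2 difference was 1.76 ± 0.65 in controls against baseline (unadjusted p = 0.0165) and -1.33 ± 0.51 in portal livers against controls (unadjusted p = 0.0197), and the control libraries enter both. The exact permutation p was 0.3 and 0.2 in these comparisons, and portal livers overlapped controls as well. S100A10, which binds plasminogen at the cell surface, had normalized counts of 1663 and 1286 at baseline and between 2452 and 21846 at 6 h, with no overlap. The log2 difference over the 11 livers was 2.18 ± 0.78 (unadjusted p = 0.0140, adjusted p = 0.860, exact permutation p = 0.0256). Arterial 1 and portal 1 were highest, at 21846 and 15092, and without the 4 libraries the difference was 1.64 (unadjusted p = 0.00530).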

How the data were processed

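Liver mRNA in 13 libraries of pig liver, in 4 groups, was measured by non-directional poly-A sequencing. The authors deposited raw read counts per gene, not normalized, made by HISAT2 mapping to Sscrofa11.1 and FeatureCounts on Ensembl release 110. Tool versions, the strand option and the treatment of multiply mapped reads are not given in the sources used here. The labels name another RNA extraction kit (miRNeasy) than the paper's sequencing methods (NucleoSpin). Strand is not marked, so reads of overlapping genes cannot be separated. The RefSeq spans of 12 of the 33 genes overlap another gene, among them F5, PLG, PLAU, F13A1 and ADAMTS13. RefSeq was matched by symbol for 33 of 33 genes.

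Every column matched a label, and 0 columns were without a sample. Members and lists were chosen with earlier results of these data known. The counts went into edgeR 4.0.16 under R 4.3.3 (filterByExpr, TMM, quasi-likelihood test, 4 groups in 1 fit, common biological coefficient of variation 0.729, Benjamini-Hochberg over 16481 genes, threshold 0.05), after the script was tested on simulated data. The SE of a log2 difference is its size divided by the square root of the test's F. Single genes were also compared by exact two-sided permutation tests on log2(normalized count + 1). Alternatives were DESeq2 1.42.0, limma 3.58.1 (voom with sample weights), RLE scaling, other filters, the replicate number as a block, edgeR on the groups compared, each library left out, and, added after seeing the data, the 4 libraries left out.

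Genes given in every library are those with an unadjusted p under 0.05 in any comparison, the 3 smallest p in each comparison and, per role, the gene with the highest mean count, since no transcript lengths are given. FGG and PROS1 were added after their values were seen. Among other pathway genes, those with an unadjusted p under 0.05 are named, and 1 gene of that list is not reported here. Replicate numbers are those of the titles, and the p-values measure the spread between these libraries. The median total was 30260803 reads. Counts are reads without molecular identifiers, so a count of 0, which allows up to 3 reads, covers counting error only.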

Additional observations from a re-analysis of the deposited data

Results flagged for a closer look

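In 66 groups of 4 livers (33 genes, arterial and portal infusion), 2 had a liver far from the other 3 by Dixon's ratio at the 95% level, which chance alone flags in about 1 in 20 groups. PROS1, protein S, was at 719 normalized counts in arterial 1, the lowest of its 4 livers (4183, 5018 and 3639 in the others). PROCR, the endothelial protein C receptor, was at 78.5 in arterial 1, the lowest of 4 (200, 214 and 227 in the others). Arterial 1 is a library that stood apart on the principal component of other genes, and 3 other libraries that stood apart had low PROS1 too (1119, 526 and 1611), while for PROCR they had 137, 170 and 13.5. The part of RNA quality or of cell content in either value was not tested.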

How the results depend on the processing

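The count of genes called was 0 of 33 in all 7 comparisons and stayed at 0 in all 150 alternatives tried on them, including each library left out in turn (lowest 0, highest 0) and the replicate number as a block (0 in each comparison). The smallest adjusted p of any of the 33 was 0.112. At an unadjusted p under 0.05, the 33 genes numbered 0 to 6 in controls against baseline, 0 to 9 at 6 h against baseline, 0 to 3 in infused, portal and any-group comparisons and in arterial against portal, and 0 to 1 in arterial against controls. Over all genes, up to 166 were called in controls against baseline (DESeq2 on those groups), up to 111 at 6 h against baseline (voom), and, with no filter on low counts, up to 19, 11, 14, 5 and 95 in infused, arterial and portal against controls, arterial against portal and any difference. Same-numbered libraries of different groups correlated between -0.38 and 0.40, with 5 of 16 pairs over 0.1, so the block was not taken as a pairing, and whether same-numbered libraries share an animal is not given in the labels. Of 390 alternative values for the 18 log2 differences of named genes, 387 kept their direction and 3 reversed, all for arterial infusion against controls: F7 at 0.089 and F10 at 0.16 without control replicate 2, and F11 at 0.30 without control replicate 3. With each library left out in turn, F7 ranged from -1.22 to 0.089, F10 from -1.19 to 0.16 and F11 from -1.15 to 0.30. Scaling by TMM in place of DESeq2's size factors changed no direction in 18 differences of means. It moved the mean log2 difference of F5 at 6 h against baseline from -1.17 to -1.21. Depth limited TFPI and F2R, which had 0 reads in 3 libraries each. At 2 to 4 livers a group and this spread, a missed threshold does not show that groups were alike.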

Other observations

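The 5 genes outside the 33 whose log2 normalized counts over the 13 libraries were most like the mean of the 20 plasma genes were TMBIM6 (Pearson's r = 0.965), ITIH2 (0.964), DMGDH (0.954), AHSG (0.951) and PON1 (0.948). ITIH2, AHSG and PON1 encode plasma proteins of the liver, and AHSG is also among the 12 hepatocyte markers used above. These are the highest values among all genes tested over 13 points that share library depth and the 4 libraries that stood apart, and they describe likeness only.

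Vitamin K recycling and the secretion of factors V and VIII rest on genes whose values also varied over the libraries. VKORC1, the enzyme that recycles vitamin K and the target of warfarin, had normalized counts of 12468 in control 2 and 11201 in arterial 1 and of 3436 to 8732 in the other 11. MCFD2 and LMAN1, partners that carry factors V and VIII out of the endoplasmic reticulum, were lowest in portal 1, at 902 and 1099, and reached 6001 in control 1 and 6493 in arterial 2. MCFD2 was lower in each of the 4 libraries that stood apart than in any other, narrowly for portal 4 (2960 against 2979 in arterial 4). VKORC1 and LMAN1 had no such order. Of the 8 genes of this kind 0 passed the test in any comparison.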
